A study of Mus musculus with 768 samples.

Results

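Plxdc1, Plxdc2, Nell1 and Nell2 are 4 of the 24489 genes counted in single nuclei of the mouse striatum. The 4 genes were chosen on measured values of these same nuclei, namely their reads in D1, D2 and interneuron nuclei of both plates, the share of D2 nuclei with reads, and whether Plxdc1 and Nell1 share nuclei. All values below that repeat those measures are therefore descriptions and carry no test. The nuclei came from the striatum of untreated C57BL/6 mice that carried an allele named H2BG together with either Oprm1-Cre, in which Cre follows the gene of the mu opioid receptor and which was used to include patch neurons, or Slc32a1-Cre, in which Cre follows the gene of the vesicular GABA transporter and which was used for GABAergic neurons. Both groups carry H2BG and a Cre driver, and no group without them was analysed here. The age, sex and number of the animals were not given in the sources used here. Each genotype fills 1 plate, with 1 nucleus in each of 768 wells in all, so each genotype is 1 sample, and plate, animals, sex and genotype cannot be told apart.

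Plxdc1 and Plxdc2 encode transmembrane proteins with a plexin-like domain outside the cell. They are also known as tumour endothelial markers, since Plxdc1 was found in the vessels of tumours, and both have been described as receptors for pigment epithelium-derived factor, the product of Serpinf1. Nell1 and Nell2 encode large secreted proteins with a thrombospondin-like domain, von Willebrand factor type C repeats and EGF-like repeats. NELL1 is best known from bone formation, and NELL2 is a neuronal protein that guides commissural axons through the receptor Robo3. The principal cells of the striatum are spiny projection neurons (SPNs), which either express the dopamine receptor Drd1 with the peptide gene Tac1 or express the dopamine receptor Drd2 with Penk and Adora2a, and a small number of interneurons lies among them.

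In the mm10 annotation (GENCODE M21) the 4 genes lie on different chromosomes. Plxdc1 (ENSMUSG00000017417.14) spans chr11:97923238-97986444 on the minus strand and is the shortest gene, at 63.2 kb with 4.84 kb of exons. Plxdc2 (ENSMUSG00000026748.13) spans chr2:16356304-16755839 on the plus strand, with 6.95 kb of exons. Nell1 (ENSMUSG00000055409.14) spans chr7:49974864-50866608 on the plus strand, with 7.27 kb of exons in a gene of 892 kb. Nell2 (ENSMUSG00000022454.17) spans chr15:95075230-95528559 on the minus strand, with 4.67 kb of exons. A comparison of levels between genes depends on whether reads in introns were counted, a setting not given in the sources used here.

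The 2 genes of each pair are paralogs, so the sequences that reads would have to distinguish are shown first. The coding sequences of Plxdc1 (1524 bases) and Plxdc2 (1593 bases) are 62.9% identical over their aligned bases, and those of Nell1 (2433 bases) and Nell2 (2577 bases) are 64.5% identical. The longest run that each pair shares is printed in capitals, with 24 coding bases on either side, from the GENCODE transcript with the longest coding sequence. The Plxdc1 stretch lies in exon 5 of 14 (chr11:97955454-97955515, minus strand) and the Plxdc2 stretch in exon 5 of 14 (chr2:16638595-16638656, plus strand). The Nell1 stretch lies in exon 16 of 20 (chr7:50826310-50826372, plus strand) and the Nell2 stretch in exon 17 of 21 (chr15:95241565-95241627, minus strand).
Plxdc1: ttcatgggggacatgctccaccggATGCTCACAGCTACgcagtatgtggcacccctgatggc
Plxdc2: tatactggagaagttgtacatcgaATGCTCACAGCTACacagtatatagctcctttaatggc
Nell1: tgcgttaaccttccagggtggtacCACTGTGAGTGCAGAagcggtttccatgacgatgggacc
Nell2: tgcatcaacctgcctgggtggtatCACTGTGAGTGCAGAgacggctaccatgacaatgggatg
The shared runs are 14 and 15 bases long, and no run of 25 bases occurs in the annotated transcripts of any 2 of the 4 genes. Of the annotated genes that overlap a member, only Nell1os and Tmem117 are in the count table. Nell1os, antisense within Nell1, had reads in 1 nucleus among the D1-like, D2-like and interneuron-like nuclei of both plates. Tmem117, on the strand opposite Nell2, reached 2.67 to 41.1 CPM, reads per 1000000 gene reads, in the classes of the plates. Neither shares an exon base with the member it overlaps.

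After wells with fewer than 20000 gene reads or fewer than 1000 genes with a read were left out, 736 nuclei remained, with medians of 169398 (Oprm1-Cre) and 175337 (Slc32a1-Cre) gene reads. Marker genes placed 84.5% and 51.2% of the kept nuclei of these plates among D1-like SPNs and 6.76% and 38.8% among D2-like SPNs. Another 16 and 18 nuclei were interneuron-like, 14 and 18 SPNs stayed undecided between D1 and D2, and the exact number of nuclei in each class is given with the processing. The D2-like nuclei on the Oprm1-Cre plate thus number 24, and every value in them rests on few nuclei. Median Penk was 15053 and 16351 CPM in D2-like nuclei against 6.63 and 12.6 CPM in D1-like nuclei, and median Drd1 (Drd1a in the table) was 0 in D2-like nuclei of both plates against 1708 and 1926 CPM in D1-like nuclei. Both genes are among the markers that set the classes, so these medians describe the classes and are no independent check of them. Vessel markers, which matter here because Plxdc1 is known from endothelium, summed to at most 0.608 CPM over 6 genes in the D1-like and D2-like nuclei of either plate, and all 6 were at 0 in the D2-like nuclei on the Oprm1-Cre plate. Markers of astrocytes summed to 404 to 507 CPM in the SPN classes, most of it from Slc4a4, and those of oligodendrocytes to 215.997 to 355.3 CPM, with the lowest sum in the D2-like nuclei on the Oprm1-Cre plate. Their part in the results was not tested. Below, a share of nuclei counts nuclei with at least 1 read after each nucleus was thinned at random to 50000 gene reads, and its interval is the exact Clopper-Pearson 95% interval. CPM of a class are its summed reads per 1000000 summed gene reads, with exact Poisson 95% intervals. The interval of a share covers only the sampling of nuclei within 1 plate. The Poisson interval covers only the counting of reads. It is too narrow even for that, because reads amplified by PCR and counted without molecular identifiers are not independent molecules. Neither covers differences between animals or plates.

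Plxdc1 was read in most D2-like nuclei on the Slc32a1-Cre plate and in few D1-like nuclei. It was found in 12 of 24 D2-like nuclei on the Oprm1-Cre plate, a share of 50% (29.1 to 70.9%), and in 87 on the Slc32a1-Cre plate, a share of 58.8% (50.4 to 66.8%). Among D1-like nuclei the shares were 3.69% (1.86 to 6.51%; 11 nuclei) and 2.58% (0.842 to 5.91%; 5 nuclei). Without thinning the D2-like shares were 54.2% and 64.2% and the D1-like shares 4% and 4.10%, with median gene reads of 176438 and 182494 in D2-like against 169770 and 166894 in D1-like nuclei. The groups overlapped, since the highest D1-like nucleus reached 300.1 CPM on the Oprm1-Cre plate and 789 CPM on the Slc32a1-Cre plate. Over the D2-like nuclei the lowest, median and highest levels were 0, 40.2 and 666 CPM on the Oprm1-Cre plate and 0, 86.8 and 1114 CPM on the Slc32a1-Cre plate.

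Summed over nuclei, Plxdc1 stood at 137.5 CPM (126.4 to 149.2) in D2-like and 6.26 CPM (5.61 to 6.95) in D1-like nuclei on the Oprm1-Cre plate. On the Slc32a1-Cre plate the sums were 187.4 CPM (182.5 to 192.4) and 5.71 CPM (4.95 to 6.55). With 5 CPM added to both sums, the log2 ratio of D2-like over D1-like was 3.66 on the Oprm1-Cre plate, the 11th highest of 11112 measured genes, and 4.17 on the Slc32a1-Cre plate, the 6th highest of 10891. A gene was measured in a contrast when it reached 5 CPM in either class. The Plxdc1 reads of D2-like nuclei were spread over many nuclei on the Slc32a1-Cre plate, where the top nucleus held 3.35% of them, and less so on the Oprm1-Cre plate, where it held 27.3%. In D1-like nuclei on the Slc32a1-Cre plate 1 nucleus held 56.9% of the Plxdc1 reads, and without the nucleus with the most reads of each class the log2 ratio there was 4.66.

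**Figure D1:**
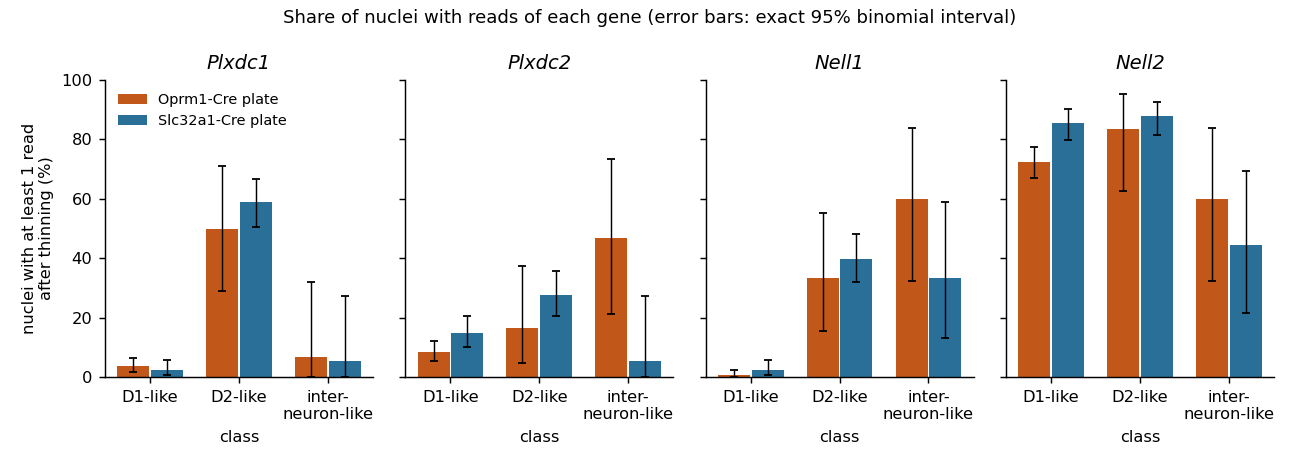
Share of nuclei with at least 1 read after thinning to 50000 gene reads, in percent, for each gene (panels), class (horizontal axis) and plate (colour), with exact 95% binomial intervals as error bars. Plxdc1 and Nell1 are read in 33.3 to 58.8% of D2-like nuclei and at most 3.69% of D1-like nuclei, while Nell2 is read in 72.5 to 87.8% of the nuclei of both SPN classes.

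Plxdc1 reads in D1-like nuclei were examined nucleus by nucleus. Without thinning, 12 D1-like nuclei on the Oprm1-Cre plate held such reads, at a median of 102.3 CPM, and 8 on the Slc32a1-Cre plate did, at a median of 9.49 CPM. Their median Penk, the D2 peptide gene, was 38.5 and 54.8 CPM, against 6.47 and 12.4 CPM in the D1-like nuclei without Plxdc1 reads. These Penk levels lay far below the medians of D2-like nuclei given above. Penk is among the D2 markers that set the classes, so that distance follows in part from the class rule. On the Oprm1-Cre plate the nuclei with reads were also deeper, with a median of 252257 gene reads against 168458, but on the Slc32a1-Cre plate they were shallower (150058 against 167403). The part of depth was not tested for these nuclei. Among the SPNs undecided between D1 and D2, Plxdc1 was read in 3 of 14 and 6 of 18 nuclei without thinning, up to 78.5 and 1022 CPM, and Nell1 in 4 of 14 and 0 of 18, where 0 of 18 allows a share of up to 18.5% (exact 95% interval).

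Plxdc2, the paralog, was much less sharply divided between the SPN classes. On the Oprm1-Cre plate it was read in 4 of 24 D2-like nuclei, 16.7% (4.74 to 37.4%), and in 8.39% (5.50 to 12.1%) of D1-like nuclei. On the Slc32a1-Cre plate the shares were 27.7% (20.7 to 35.7%; 41 nuclei) and 14.9% (10.2 to 20.8%; 29 nuclei). The D2-like share exceeded the D1-like share by 8.28 percentage points (-4.23 to 29.2) on the Oprm1-Cre plate and by 12.8 points (3.63 to 22) on the Slc32a1-Cre plate. These intervals combine those of the shares, and that of the Oprm1-Cre plate includes 0. The highest D1-like nuclei of the plates, at 677 and 1470 CPM, lay above the highest D2-like nuclei, at 482 and 795 CPM, so the classes overlapped. Plxdc2 was read in a minority of nuclei of both SPN classes, and its median over nuclei was 0 in each.

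The Plxdc2 sums were 55.8 CPM (48.8 to 63.4) in D2-like and 16.3 CPM (15.3 to 17.4) in D1-like nuclei on the Oprm1-Cre plate. They were 91.7 CPM (88.3 to 95.2) and 37.3 CPM (35.4 to 39.4) on the Slc32a1-Cre plate. The log2 ratio of D2-like over D1-like was 1.51 and 1.19. The first of these depends on a single nucleus, which held 50.9% of the Plxdc2 reads of the 24 D2-like nuclei, and without the top nucleus of each class the ratio was 0.79. On the Slc32a1-Cre plate, where the top D2-like nucleus held 8.62% of the reads, the ratio without the top nuclei was 1.34.

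Nell1 followed Plxdc1 in its division between SPN classes but was read in fewer D2-like nuclei. It was found in 8 of 24 D2-like nuclei on the Oprm1-Cre plate, 33.3% (15.6 to 55.3%), and in 59 on the Slc32a1-Cre plate, 39.9% (31.9 to 48.2%). In D1-like nuclei it was found in 2, 0.671% (0.0814 to 2.40%), and in 5, 2.58% (0.842 to 5.91%). The median over D2-like nuclei was 0 in both plates, and the highest nucleus reached 675 CPM on the Oprm1-Cre plate and 1945 CPM on the Slc32a1-Cre plate. The highest D1-like nuclei, at 344.2 and 672 CPM, lay inside that range.

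The Nell1 sums were 115.6 CPM (105.5 to 126.5) in D2-like and 2.82 CPM (2.40 to 3.30) in D1-like nuclei on the Oprm1-Cre plate. On the Slc32a1-Cre plate they were 114.9 CPM (111.1 to 118.9) and 5.54 CPM (4.79 to 6.37). The log2 ratios of D2-like over D1-like, 3.95 and 3.51, each ranked as the 8th highest among the measured genes of their plate. The D1-like sums rested on very few nuclei, since 1 nucleus held 57.1% of the reads on the Oprm1-Cre plate and 50% on the Slc32a1-Cre plate. On the Slc32a1-Cre plate this nucleus, at 672 CPM of Nell1, was also the D1-like nucleus highest in Plxdc1, at 789 CPM.

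Nell2 was read in most SPNs and did not separate the classes. Its share was 83.3% (62.6 to 95.3%) of D2-like and 72.5% (67 to 77.5%) of D1-like nuclei on the Oprm1-Cre plate, and 87.8% (81.5 to 92.6%) and 85.6% (79.8 to 90.2%) on the Slc32a1-Cre plate. The difference between the shares, D2-like minus D1-like, was 10.9 (-10.5 to 24) and 2.27 (-5.61 to 9.75) percentage points, and both intervals include 0. The lowest, median and highest D2-like nuclei stood at 0, 338.3 and 903 CPM on the Oprm1-Cre plate and at 0, 516 and 2772 CPM on the Slc32a1-Cre plate. In D1-like nuclei the same values were 0, 191.3 and 2541 CPM and 0, 494 and 3215 CPM. The class sums were 379.9 CPM (361.3 to 399) and 391 CPM (386 to 396) on the Oprm1-Cre plate, and 640.2 CPM (631 to 649) and 619.5 CPM (611 to 628) on the Slc32a1-Cre plate, D2-like before D1-like. The log2 ratio of D2-like over D1-like was -0.04 and 0.05, so the paralogs Nell1 and Nell2 differed in their distribution over the SPN classes.

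The plot of D2-like over D1-like ratios sets the members among all genes. By a fold of more than 2, 6.61% of the measured genes were higher in D2-like nuclei on the Oprm1-Cre plate and 1.97% on the Slc32a1-Cre plate, and Plxdc1, Plxdc2 and Nell1 were past that fold in both. Plxdc2 fell short of it on the Oprm1-Cre plate without the top nuclei (0.79) and by the mean of nuclei (0.998), and on the Slc32a1-Cre plate with 20 CPM added (0.96) and by the mean of nuclei (0.90). The members were chosen on this contrast, so nothing is read from their count against that background. The share of all genes past the fold was larger in the plate with 24 D2-like nuclei.

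**Figure D2:**
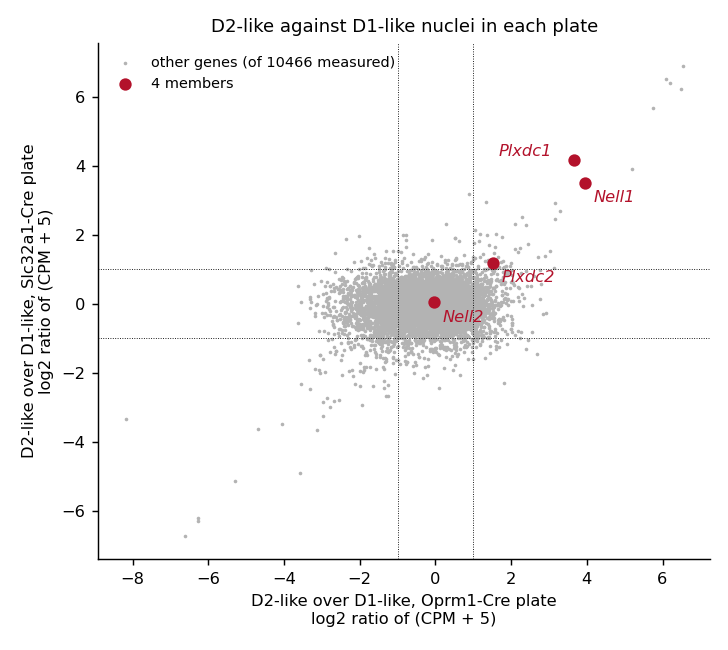
Each point is a gene measured in both plates (10466 genes); the axes give the log2 ratio of D2-like over D1-like CPM, with 5 CPM added, on the Oprm1-Cre plate (horizontal) and the Slc32a1-Cre plate (vertical), and dotted lines mark 2-fold. Plxdc1 (3.66 and 4.17) and Nell1 (3.95 and 3.51) lie beyond nearly all other genes in both plates, Plxdc2 (1.51 and 1.19) lies just past the lines and Nell2 (-0.04 and 0.05) lies at the centre.

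Levels of different genes were compared only after division by the length of the exons, which assumes that reads came from exons. On this scale of CPM per kb, Nell2 had the highest value in D2-like nuclei of both plates (81.3 and 137.1), followed by Plxdc1 (28.4 and 38.7), Nell1 (15.9 and 15.8) and Plxdc2 (8.03 and 13.2). In D1-like nuclei the order was Nell2 (83.7 and 132.7), Plxdc2 (2.35 and 5.38), Plxdc1 (1.29 and 1.18) and Nell1 (0.388 and 0.761). Among interneuron-like nuclei Nell2 led again (64.7 and 51.1), with Nell1 next (58.9 and 26.3), then Plxdc2 (35.1 and 2.39) and Plxdc1 (1.25 and 0.107). In D2-like nuclei Plxdc2 on the Slc32a1-Cre plate came closer to Nell1 than to its own value in the other plate, and in interneuron-like nuclei the ranges of Nell2 and Nell1 over the plates overlapped, so these neighbours did not differ beyond their spread.

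Reads per nucleus varied widely where a gene was read at all. Of the D2-like nuclei on the Slc32a1-Cre plate, after thinning, 61 held no Plxdc1 read, 7 held 1 to 2, 22 held 3 to 9 and 58 held 10 or more. For Nell1 the same counts were 89, 10, 19 and 30 nuclei. For Plxdc2, 8, 7 and 26 nuclei held 1 to 2, 3 to 9 and 10 or more reads and the others none. For Nell2, 18 nuclei held none, 8 held 1 to 2, 15 held 3 to 9 and the others 10 or more. In each gene the nuclei with 1 to 2 reads were outnumbered by those with 10 or more, so the shares changed little when at least 3 reads were asked for (54.1% for Plxdc1 and 33.1% for Nell1). All 4 genes were read together in 10 of these nuclei, 3 of them in 42, 2 in 60, 1 in 31 and none in 5.

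**Figure D3:**
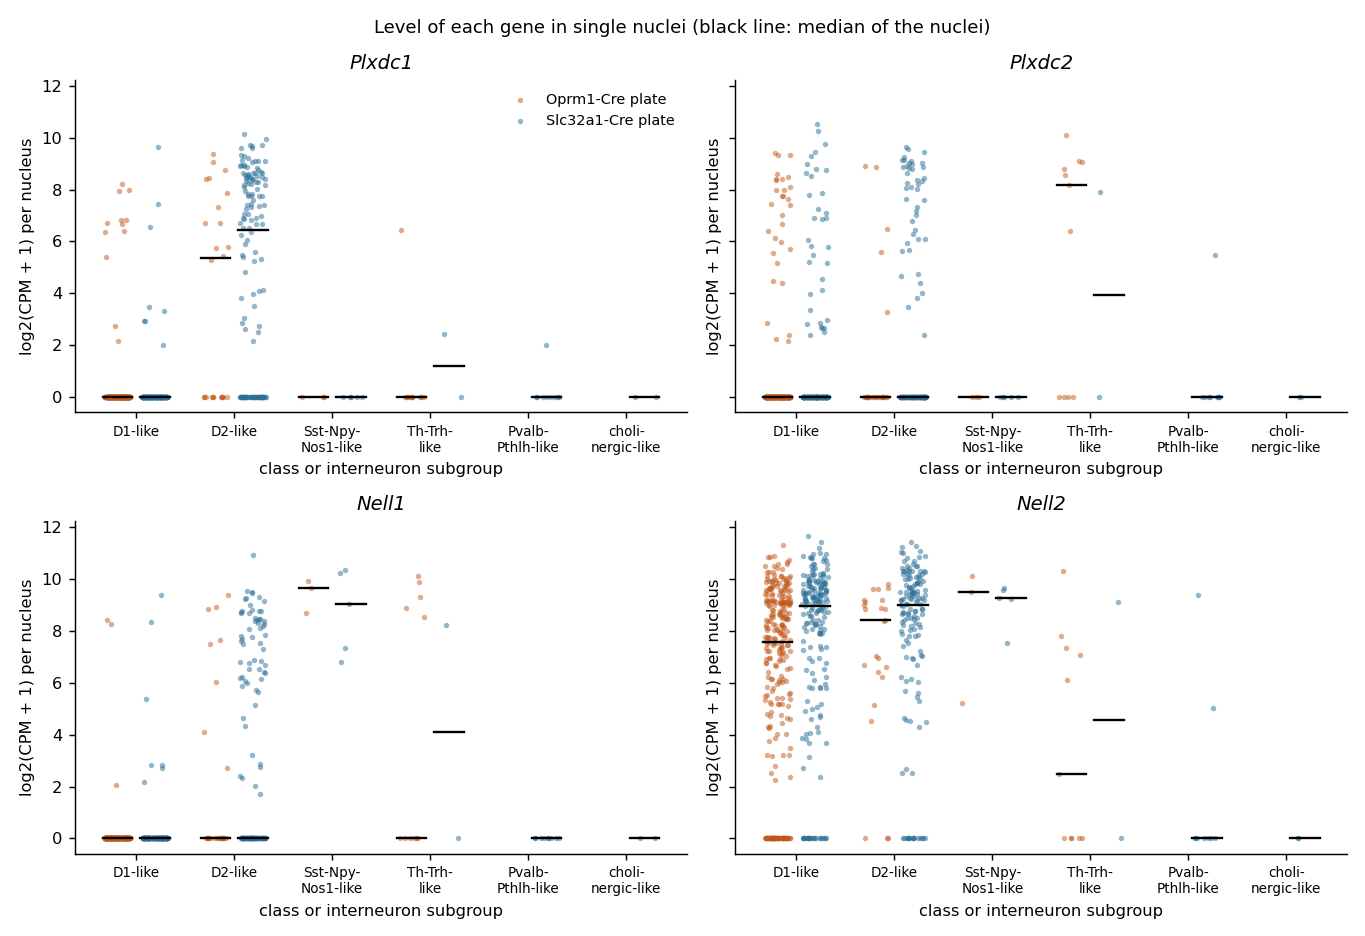
Level of each gene (panels) in single nuclei as log2(CPM + 1), by class and interneuron subgroup (horizontal axis) and plate (colour); each point is a nucleus and the black line is the median, and 2 interneuron-like nuclei with no subgroup are not drawn. Plxdc1 is above 0 mainly in D2-like nuclei, Nell1 is above 0 in part of the D2-like nuclei and in all 8 Sst-Npy-Nos1-like nuclei, and Nell2 is above 0 in most SPNs.

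Whether Plxdc1 and Nell1 share nuclei was counted within D2-like nuclei. On the Slc32a1-Cre plate, after thinning, 40 nuclei held reads of both, 47 of Plxdc1 only, 19 of Nell1 only and 42 of neither. The margins of this count give 34.7 nuclei with both if the genes were read independently. Nell1 was read in 46% (35.2 to 57%) of the nuclei with Plxdc1 and in 31.1% (19.9 to 44.3%) of those without, and these intervals overlap. On the Oprm1-Cre plate 6 of 24 nuclei held both, 6 Plxdc1 only, 2 Nell1 only and 10 neither, where the margins give 4. Nell1 was read there in 50% (21.1 to 78.9%) of the nuclei with Plxdc1 and 16.7% (2.09 to 48.4%) of those without. By at least 1 read, the genes were thus neither confined to the same D2-like nuclei nor kept apart. With at least 3 reads, Nell1 was found in 54.5% of Oprm1-Cre nuclei with Plxdc1 and 0% of those without. On the Slc32a1-Cre plate these shares were 38.8% and 26.5%. A gene without a read in a nucleus may still be expressed there, so these counts do not settle whether the genes share nuclei.

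Depth moved with this overlap. The 40 nuclei with both genes had a median of 220594 gene reads before thinning, against 172450 with Plxdc1 only, 166383 with Nell1 only and 181338 with neither. Among the 74 nuclei on the Slc32a1-Cre plate below the median depth, 14 held both genes where the margins give 14.2, and Nell1 was read in 33.3% of the nuclei with Plxdc1 and 34.4% of those without. Among the 74 at or above the median, 26 held both where the margins give 20.7, and Nell1 was read in 57.8% of the nuclei with Plxdc1 and 27.6% of those without. The joint excess on the Slc32a1-Cre plate was thus present in the deeper nuclei only. On the Oprm1-Cre plate the lower 12 nuclei held 1 with both (margins 0.50) and the upper 12 held 5 (margins 3.50). This division by depth was added after the data were seen, and the part of depth was not tested. As a description over nuclei of 1 library, the Pearson correlation of log2(CPM + 1) of Plxdc1 and Nell1 was 0.16 on the Slc32a1-Cre plate and 0.43 over the 24 nuclei of the other, with Spearman values of 0.14 and 0.35. Nuclei share the preparation and differ in depth, and a weak correlation in sparse counts is no finding.

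**Figure D4:**
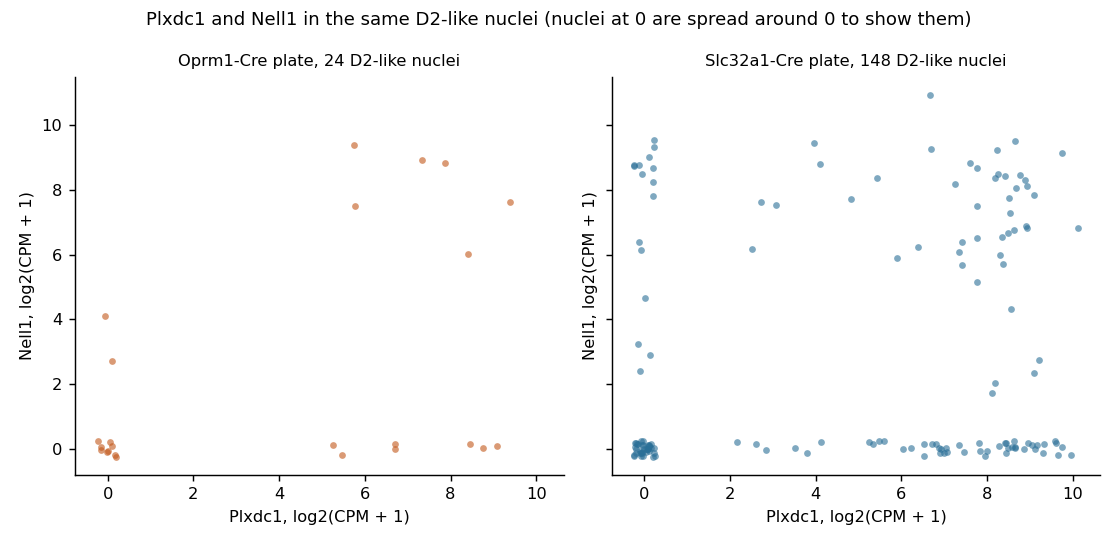
Plxdc1 (horizontal axis) and Nell1 (vertical axis) in the same D2-like nuclei, both as log2(CPM + 1), with 1 panel per plate; each point is a nucleus and nuclei at 0 are spread around 0 so that they can be seen. All 4 combinations of read and unread genes are filled in both plates, and before thinning 46 (Slc32a1-Cre) and 6 (Oprm1-Cre) nuclei have reads of both genes.

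The other pairs were counted in the same way on the Slc32a1-Cre plate, where the odds ratio of joint reading was 1.88 for Plxdc1 with Nell1. Plxdc1 and its paralog Plxdc2 were read together in 24 D2-like nuclei where the margins give 24.1. Plxdc2 and Nell1 were read together in 14 nuclei (margins 16.3), and Plxdc1 and Nell2 in 75 (margins 76.4). The paralogs Nell1 and Nell2 were read together in 56 nuclei (margins 51.8; odds ratio 3.78), and Nell2 was missing from 3 of the 59 nuclei with Nell1. Among the D1-like nuclei Plxdc1 and Nell1 were read together in 1 nucleus on the Slc32a1-Cre plate and in none on the Oprm1-Cre plate. That nucleus was the D1-like nucleus with the highest level of both genes on its plate. D2-like nuclei with both genes, with 1 of them or with neither held like levels of the D2 marker Penk, with medians from 15350 to 17564 CPM.

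Interneuron-like nuclei held the highest Nell1 sums of the named classes, 428 CPM (406 to 452) on the Oprm1-Cre plate and 191.2 CPM (177.6 to 205.5) on the Slc32a1-Cre plate. Plxdc1 was nearly absent from them, at 6.05 CPM (3.64 to 9.45), all from 1 nucleus, and at 0.519 CPM (0.0628 to 1.87), from 2 reads. The Plxdc2 sum differed widely between the plates, 243.96 CPM (226.98 to 261.9) against 16.6 CPM (12.8 to 21.2). Nell2 stood at 301.9 CPM (283.003 to 321.8) and 238.7 CPM (223.5 to 254.6), below its SPN sums in both plates.

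These sums depend on which interneurons each plate held. Each interneuron-like nucleus was given the subgroup whose markers lay highest above their mean, with at least 2 markers read, a rule set with the data in view. The Oprm1-Cre plate held 11 Th-Trh-like, 3 Sst-Npy-Nos1-like and 2 unassigned nuclei. Of the unassigned nuclei, 1 held Penk at 8911 CPM and no read of Sst, Npy, Nos1, Chat, Pthlh, Pvalb, Th or Trh. Its class rests on its cluster, and it is part of the interneuron-like sums above. The Slc32a1-Cre plate held 9 Pvalb-Pthlh-like, 5 Sst-Npy-Nos1-like, 2 Th-Trh-like and 2 cholinergic-like nuclei. The plates therefore cannot be compared over interneurons as a whole.

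Values of the subgroups are given without thinning. The Sst-Npy-Nos1-like nuclei, which carry the markers of low-threshold spiking interneurons, all held Nell1. Their Nell1 levels were 408, 813 and 968 CPM in the 3 nuclei on the Oprm1-Cre plate, and 109.5, 159.7, 527, 1189 and 1314 CPM in the 5 nuclei on the Slc32a1-Cre plate. Nell2 was also read in all 8, from 36.3 to 1106 CPM on the Oprm1-Cre plate and from 182.6 to 803 CPM on the Slc32a1-Cre plate. Plxdc1 and Plxdc2 had no read in any of the 8, and 0 of 8 allows a share of up to 36.9% (exact 95% interval). The Sst-Npy-Nos1-like nuclei of both plates thus held both NELL genes and no read of either plexin-domain gene.

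Th-Trh-like nuclei, named for tyrosine hydroxylase and thyrotropin-releasing hormone, often held Plxdc2. It was read in 8 of 13, 61.5% (31.6 to 86.1%), with a lowest, median and highest level of 0, 236.5 and 1096 CPM. Without thinning, its D2-like shares were 20.8% on the Oprm1-Cre plate and 29.7% on the Slc32a1-Cre plate. Median gene reads were 219369 in the Th-Trh-like nuclei against 176438 and 182494 in these D2-like nuclei, and the part of depth was not tested. Nell1 was read in 6 of the 13 (up to 1115 CPM), Nell2 in 7 (up to 1285 CPM) and Plxdc1 in 2 (up to 85.1 CPM). Since 11 of the 13 came from the Oprm1-Cre plate, the subgroup and the plate cannot be told apart. The 2 from the Slc32a1-Cre plate stood at 0 and 236.5 CPM for Plxdc2.

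Pvalb-Pthlh-like nuclei, all from the Slc32a1-Cre plate, had Nell1 reads in 0 of 9 nuclei, which allows a share of up to 33.6% (exact 95% interval). Of the 9, 1 had no read of Pvalb or Pthlh and held Chat at 324.7 CPM, so its name rests on other markers, while the other 8 all held Pthlh. Plxdc1 was read in 1 of the 9, at 3.0 CPM, and Plxdc2 in 1, at 43.9 CPM. Nell2 was read in 2, at 32 and 672 CPM. The 2 cholinergic-like nuclei, with Chat at 442 and 1405 CPM, had no read of any of the 4 genes. In sum over subgroups, Nell1 levels ran from 0 in all 9 Pvalb-Pthlh-like nuclei, the 8 with Pthlh reads among them, to 109.5 CPM or more in all 8 Sst-Npy-Nos1-like nuclei. These 2 subgroups were set side by side after their values were seen. How many other genes part them in this way was not counted.

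Between plates, the members were compared within SPN classes, a contrast that also separates the genotypes, animals and any difference in preparation. Plxdc1 in D1-like nuclei stood at 6.26 and 5.71 CPM, with a log2 ratio of Oprm1-Cre over Slc32a1-Cre of 0.07. Plxdc2 in D1-like nuclei was lower on the Oprm1-Cre plate (log2 ratio -0.99, from the sums of 16.3 and 37.3 CPM), as was its share (8.39% against 14.9%). The Nell1 ratio in D1-like nuclei was -0.43, from sums of 2.82 and 5.54 CPM that few nuclei fill. Nell2 was lower on the Oprm1-Cre plate in D1-like nuclei (-0.66), where its share was also lower, 72.5% (67 to 77.5%) against 85.6% (79.8 to 90.2%).

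In D2-like nuclei the ratios were -0.43 for Plxdc1, -0.67 for Plxdc2, 0.01 for Nell1 and -0.75 for Nell2. No member was lower by more than 2-fold in either class, against 1.86% of the measured genes in D1-like nuclei and 14.3% in D2-like nuclei, but for Plxdc2 this depends on the processing. Plxdc2 passed 2-fold in D2-like nuclei without the nucleus with the most reads (-1.40). In D1-like nuclei it passed 2-fold in 4 alternatives, with 1 CPM added (-1.14), with at least 100000 gene reads (-1.06), with each nucleus classed alone (-1.06) and per spike-in reads (-1.28). The spike-in value has 5 added per 1000000 spike-in reads, which does not weigh the same as 5 CPM. The thinned shares of all 4 genes in D2-like nuclei had overlapping intervals between plates. Reads per 1000000 spike-in reads in place of gene reads gave ratios in the same direction for Nell2 (-0.82 in D1-like nuclei, -0.66 in D2-like nuclei).

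The patch and matrix compartments of the striatum differ in input and in markers, and the Oprm1-Cre plate was made to include patch neurons. Each nucleus was given a score, the mean log2(CPM + 1) over 12 patch genes less the same mean over 8 matrix genes, and each class was divided into a lowest, a middle and a highest group of like size. In D2-like nuclei on the Slc32a1-Cre plate Nell1 was read in 55.1% (40.2 to 69.3%) of the 49 lowest, most matrix-leaning nuclei, 36.7% (23.4 to 51.7%) of the 49 middle ones and 28% (16.2 to 42.5%) of the 50 highest, most patch-leaning ones. The Nell1 sums changed much less, from 116.997 CPM to 127.97 CPM and 99.7 CPM. Plxdc1 shares were 63.3%, 65.3% and 48%, and Plxdc2 shares were 38.8%, 26.5% and 18%. The lowest group was also deeper before thinning, with a median of 226123 gene reads against 166383 and 173811, and the part of depth was not tested.

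Nell2 was lower in the highest, most patch-leaning group than in the lowest in all 3 sets of nuclei examined. How many other genes did so was not counted. Its share went from 93.9% to 80% in D2-like nuclei on the Slc32a1-Cre plate, from 90.8% to 79.7% in D1-like nuclei of that plate and from 79% to 65.7% in D1-like nuclei on the Oprm1-Cre plate, lowest to highest group, and in each set the intervals of the end groups overlap. The sums went from 731 to 567 CPM, from 703 to 546 CPM and from 466 to 348.8 CPM. By the mean of nuclei, D1-like nuclei on the Oprm1-Cre plate were lowest in the middle group (427, 297.5 and 347.9 CPM). The lowest D1-like groups were also deeper, with median gene reads of 186357 against 161778 in the highest (Slc32a1-Cre) and 174353 against 167431 (Oprm1-Cre). The part of depth was not tested. Plxdc2 in D1-like nuclei on the Slc32a1-Cre plate went from 48 to 14.3 CPM, but its shares (16.9% and 10.9%) had overlapping intervals, and on the Oprm1-Cre plate its sums were 14.4 and 15.5 CPM. The Pearson correlations of Nell2 with the score were -0.21, -0.22 and -0.12 in these 3 sets, as descriptions over nuclei that share a library. The score is a range and not a type, and 36, 45 and 60 nuclei lay within 0.25 of a group limit.

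**Figure D5:**
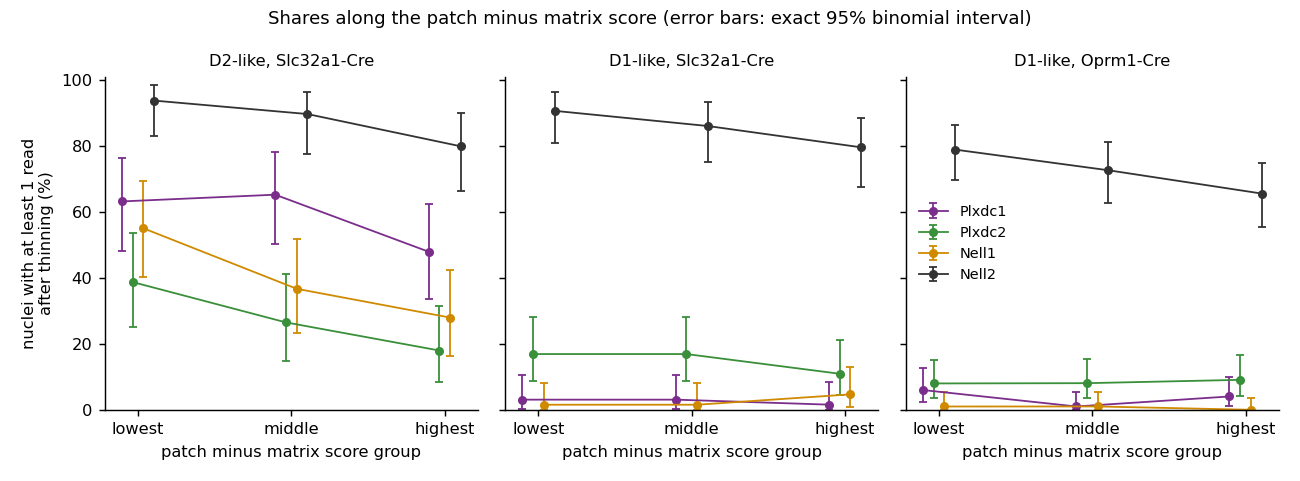
Share of nuclei with at least 1 read after thinning, in percent, in the lowest, middle and highest group of the patch minus matrix score, for D2-like nuclei on the Slc32a1-Cre plate and D1-like nuclei of both plates (panels), with exact 95% binomial intervals as error bars. Nell2 goes from 93.9 to 80%, 90.8 to 79.7% and 79 to 65.7% from the lowest to the highest group, and Nell1 goes from 55.1 to 28% in D2-like nuclei.

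Clusters of SPNs, which were made from all variable genes and so are not independent of the members, placed Nell2 unevenly among D1-like nuclei. Its sum was 639 CPM in a cluster that came mostly from the Slc32a1-Cre plate, with 20 nuclei of the other. It was 562 CPM, 267.6 CPM and 205.97 CPM in 3 clusters that came mostly from the Oprm1-Cre plate, with 29, 19 and 21 nuclei of the other. A smaller cluster of 40 D1-like nuclei, 24 from the Oprm1-Cre plate and 16 from the other, stood at 493 CPM. Plxdc1 and Nell1 were highest in the cluster that held nearly all D2-like nuclei, at 179.6 and 115.1 CPM, against at most 29.5 and 14.6 CPM in the other SPN clusters.

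Ligands, receptors and partners known for these proteins were taken from a list of 18 genes, of which 12 reached 5 CPM in D1-like or D2-like nuclei. The ligand gene of the plexin-domain proteins, Serpinf1, had no read in D1-like or D2-like nuclei of either plate. Nid1 and Nid2, which encode basement membrane proteins of which nidogen-1 binds Plxdc1, stood at no more than 0.506 CPM in the SPN classes, and Nid1 reached 9.08 CPM in interneuron-like nuclei from Slc32a1-Cre mice. Cttn, which encodes cortactin, an actin-binding partner of Plxdc1, was present at 54.6 to 85.6 CPM in the SPN classes. In interneuron-like nuclei on the Slc32a1-Cre plate Serpinf1 stood at 42.8 CPM, with reads in 11.1% of them.

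Among receptors for NELL proteins, Robo3, the axonal receptor for NELL2, reached 57.2 CPM in D2-like against 34.8 CPM in D1-like nuclei on the Oprm1-Cre plate, and 12 against 13.3 CPM on the Slc32a1-Cre plate, and had no read in interneuron-like nuclei. The log2 ratio of Robo3, Oprm1-Cre over Slc32a1-Cre, was 1.12 (D1-like) and 1.87 (D2-like). Of all measured genes, 2.90% (D1-like) and 9.24% (D2-like) were higher by more than 2-fold on the Oprm1-Cre plate. From the same list, Cntnap4 passed that fold at 1.62 (D1-like) and -1.15 (D2-like), and Runx2 at -1.41 (D2-like). Plate and genotype cannot be told apart, so nothing particular to Robo3 is read from its ratio. Robo1 and Robo2, related to Robo3, stood at 48 to 72.8 CPM and 120 to 290.3 CPM in the SPN classes. Ros1, the receptor for NELL2 in the epididymis, had at most 0.0181 CPM. Cntnap4, a receptor described for NELL1, was a gene of interneurons here, at 551 and 361.1 CPM in interneuron-like nuclei against 0 to 11 CPM in the SPN classes. Atraid, another receptor described for NELL1, was read in all classes (114.9 to 433 CPM). The integrin genes Itgb1 and Itga3 stood at 30.9 to 45.3 and 7.17 to 13.1 CPM in SPN classes.

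The protein kinase C genes Prkca and Prkcb, whose products bind NELL proteins inside cells, stood at 39.5 to 81.4 and 1085 to 1417 CPM in SPN classes. Slit3, a ligand of Robo receptors, stood at 63.5 to 90.2 CPM in SPN classes and at no more than 2.87 CPM in interneuron-like nuclei. Slit1 and Slit2 stayed under 5 CPM in SPN classes. Runx2, a bone transcription factor upstream of Nell1, stood at 2.18 to 14.1 CPM in SPN classes. Over the 12 measured genes the median log2 ratio of D2-like over D1-like was -0.03 on the Oprm1-Cre plate and 0.33 on the Slc32a1-Cre plate, beside -0.10 and -0.03 over all measured genes. On the Oprm1-Cre plate 0 of the 12 were higher and 3 were lower by more than 2-fold in D2-like nuclei (Robo2 at -1.03, Runx2 at -1.21 and Cntnap4 at -1.68), beside 6.61% higher and 16.2% lower of all measured genes. On the Slc32a1-Cre plate 1 was higher (Cntnap4 at 1.09) and 0 were lower, beside 1.97% and 3.51% of all measured genes. No gene of the list passed this fold in the same direction in both plates. The share of all measured genes that did so was not counted, so nothing is read from this about the list.

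Genes most like each member were taken as the 5 with the highest mean Pearson correlation of log2(CPM + 1) over 3 sets of nuclei, the D1-like nuclei of each plate and the D2-like nuclei on the Slc32a1-Cre plate, among 9524 genes. For Plxdc1 these were Itga11 (0.21), Magee1, Fhit, Papolg and AI837181 (0.18). For Nell1 they were Edc3 (0.18), the D2 marker Adora2a (0.18), Plxdc1 (0.17), Zmat5 and Tmcc3 (0.17). For Plxdc2 they were Ago4 (0.16), Prkar1b, Zbtb4, Cbfa2t2 and Wdr35 (0.15). For Nell2 they were Synpr (0.26), which encodes a synaptic vesicle protein, Wfs1 (0.23), Kirrel3, Sez6 and Ppp1r2 (0.20). A mean can join unlike sets. Nell1 with Plxdc1 stood at -0.02 and 0.38 in D1-like nuclei (Oprm1-Cre and Slc32a1-Cre) and at 0.16 in D2-like nuclei. Among the D1-like nuclei on the Slc32a1-Cre plate only 1 held reads of both genes. The mean correlations are weak, share the depth of each nucleus and are no finding.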

How the data were processed

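Single nuclei of 2 genotypes were counted in 384 wells each. Per the labels' protocols RNA came from a column kit and libraries from a stranded total RNA kit. The extraction protocol describes a kit for bulk RNA, so how the RNA of single nuclei was handled is not clear from it. The deposited values are whole-number read counts per gene and well, used as deposited from the joint table. The submitters' processing notes name mm10, SAMtools and Seurat, with aligner, counter, annotation, strand and intron settings not given in the sources used here. The labels of the Slc32a1-Cre wells name a plate number that the Oprm1-Cre file carries, so wells were assigned by column names that end exactly 1 sample title, and 0 columns were unmapped.

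Nuclei with at least 1000 genes and 20000 gene reads were clustered on log-transformed counts (2000 variable genes, 30 principal components, 15 neighbours, Leiden resolution 1, seed 1). Clusters were SPN, interneuron or other by marker lists, with a mean log2(CPM + 1) at least 3 for 10 SPN markers. An SPN was given to the D1 or D2 class if its scores, means of log2(CPM + 1) over 7 markers each, lay more than 2 apart, and 15 and 16 SPNs lay within 0.5 of that limit. This gave 300 and 195 D1-like, 24 and 148 D2-like and 16 and 18 interneuron-like nuclei (Oprm1-Cre and Slc32a1-Cre) among 355 and 381 kept nuclei. Doublets were not removed; they were left out in an alternative. Each genotype is 1 sample, so no test, p-value or standard error was computed, and nuclei are not replicates of a genotype. Intervals of shares and of their differences take the nuclei of 1 plate as units. They are descriptions, and their overlap or inclusion of 0 is no test. Ratios have 5 CPM added, or 5 per 1000000 spike-in reads where scaled to spike-in reads, and called means a fold over 2. Shares use counts thinned to 50000 reads, which left out 3 D1-like nuclei, 1 interneuron-like and 1 undecided nucleus. Named were the 4 members, measured genes of the partner list with unmeasured ones by name, and 5 genes most like each member, from genes with a read in at least 10% of SPNs. Chosen outside that rule, after values were seen, were Nell1os, Tmem117, Penk, Drd1, Chat and Slc4a4. The members and all lists were chosen with earlier results of these data known. Ratios and thinning were tested on simulated data. The software was scikit-learn 1.9.0, leidenalg 0.10.2, igraph 0.11.9, pandas 2.3.3, scipy 1.17.1, numpy 2.4.6 and matplotlib 3.10.9 under Python 3.11.15, with Biopython 1.88 to align coding sequences (match 2, mismatch -1, gap opening -5, gap extension -0.5).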

Additional observations from a re-analysis of the deposited data

Results flagged for a closer look

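The 4 members and the 18 genes of the partner list were screened for ratios over D1-like nuclei that differ in direction between plates. In 5 contrasts a ratio went one way on the Oprm1-Cre plate and the other way on the Slc32a1-Cre plate, by more than 0.5 on the log2 scale in each. How many of all measured genes did so was not counted, so nothing is read from the count of 5. With 1 plate per genotype the difference between plates was not tested. For Plxdc2, the log2 ratio of interneuron-like over D1-like nuclei was 3.54 on the Oprm1-Cre plate and -0.97 on the Slc32a1-Cre plate. Of the 16 and 18 interneuron-like nuclei behind these values, 11 and 2 were Th-Trh-like, and 8 and 2 held Plxdc2 reads.

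For Cntnap4, the log2 ratio of D2-like over D1-like was -1.68 on the Oprm1-Cre plate, where its D2-like nuclei had no read and the ratio depends on the 5 CPM added, and 1.09 on the Slc32a1-Cre plate, where it was read in 1.35% of thinned D2-like nuclei. For Runx2 the same ratio was -1.21 and 0.87, between sums of 2.18 and 14.1 CPM. For Prkca, the log2 ratio of interneuron-like over D1-like was -0.98 on the Oprm1-Cre plate and 1.68 on the Slc32a1-Cre plate. For Runx2 that ratio was -1.73, with no interneuron-like read on the Oprm1-Cre plate, and 0.79.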

How the results depend on the processing

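The D2-like shares of the 4 genes stayed within their intervals in all 64 recalculations, Plxdc1 at 45.8 to 55% (Oprm1-Cre plate) and 54.1 to 64.2% (Slc32a1-Cre plate) and Nell1 at 25 to 35% and 33.1 to 41.9%. The log2 ratios of D2-like over D1-like kept their direction for Plxdc1, Plxdc2 and Nell1 in every alternative run, but 39 of 80 recalculated ratios left the counting interval. The values that follow are those, with the Oprm1-Cre plate first where both plates are given. With 1 CPM added they were 4.25 and 4.81 for Plxdc1, 4.93 and 4.15 for Nell1 and 1.71 for Plxdc2 (Oprm1-Cre). With 20 CPM added they were 2.58 and 3.01 for Plxdc1, 2.57 and 2.40 for Nell1 and 1.06 and 0.96 for Plxdc2, the last under 2-fold. With means over nuclei Plxdc2 was also just under 2-fold (0.998 and 0.90), Nell1 was 3.67 (Oprm1-Cre) and Nell2 0.12 (Slc32a1-Cre). Per spike-in reads Plxdc1 was 4.36 and 4.69, Nell1 4.96 and 4.03, Plxdc2 1.88 (Oprm1-Cre) and Nell2 0.16 and -0.0079. Here 5 was added to reads per 1000000 spike-in reads, a scale on which it does not weigh the same as 5 CPM. The scaling and the weight of the added number cannot be told apart in these values. Without the nucleus with the most reads of each class Plxdc1 was 4.66 and Nell1 3.83 (Slc32a1-Cre), Plxdc2 0.79 and 1.34 and Nell2 -0.14 (Oprm1-Cre). With each nucleus classed alone Plxdc1 was 3.80 and 4.66 and Nell1 3.88 (Slc32a1-Cre). With a score difference over 3, Plxdc1 was 4.63 (Slc32a1-Cre), Nell1 4.15 and 3.93, Plxdc2 1.31 and Nell2 0.081 (both Slc32a1-Cre). Without the 43 possible doublets, 6 of them D2-like, Plxdc1 was 4.87 (Slc32a1-Cre) and Nell1 4.16 and 3.90. With at least 100000 gene reads Nell2 was 0.017 (Slc32a1-Cre).

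Of 80 recalculated plate ratios 26 left their interval, and the Nell1 ratio in D1-like nuclei ran from -0.84 to 0.01, that in D2-like nuclei from -0.36 to 0.10 and the Plxdc1 ratio in D1-like nuclei from -0.11 to 0.69, so their directions depend on the processing. Spike-in scaling shifted the median of all measured genes by 0.18 and -0.06 for D2-like over D1-like and by -0.15 and 0.08 for the plate ratios of D1-like and D2-like nuclei. The share of nuclei with Nell1 among D2-like nuclei with Plxdc1 was 16.7% and 33.3% below the median depth of the plates and 83.3% and 57.8% at or above it, a division added after the data were seen. Among Oprm1-Cre nuclei without Plxdc1 it was 0% below that depth and 0% with at least 3 reads. The cause of these changes was not tested. Depth and the 24 D2-like nuclei on the Oprm1-Cre plate limit what can be seen there. No paired analysis was possible because each genotype is 1 plate and no test was run.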
